A study of Mus musculus with 22 samples.

Results

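The 10 genes described here encode inflammatory cytokines (Tnf, Il6, Il1a, Il1b, Il1rn, Lif, Csf1 and Csf2), the inducible prostaglandin synthase Ptgs2 and the NF-kB inhibitor Nfkbia. They were chosen by gene symbol, and all 10 were listed among the 16271 genes present in every RNA library. RNA came from primary mouse embryonic fibroblasts of the C57BL/6 strain, taken from the body of embryos at embryonic day 13.5 and used at passage 3 to 4. The Lsh KO group (KO, Lsh-/-, libraries KO1 and KO2) lacked Lsh, a chromatin remodeller encoded by Hells that is needed for normal DNA methylation, and the wild-type group (WT, Lsh+/+, libraries WT1 and WT2) was its control. The other 18 of 22 labelled samples are chromatin samples, not analysed here. Replicates are described as biological, but neither the meaning of their number nor any pooling of embryos is stated, so p-values measure the spread between these libraries only. No inflammatory stimulus is named for either genotype.

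Tumour necrosis factor (Tnf) and the interleukin-1 ligands (Il1a, Il1b) bind receptors that free the transcription factor NF-kB from its inhibitor IkB-alpha, the product of Nfkbia. NF-kB then activates many cytokine genes and Nfkbia itself, which closes a negative feedback loop. Fibroblasts are known to answer such signals with Il6, Lif, the colony-stimulating factors and Ptgs2, the enzyme that starts prostaglandin synthesis, whereas macrophages are a known major source of Tnf and Il1b. The antagonist Il1rn occupies the interleukin-1 receptor without activating it.

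The libraries held 122.5 M (KO1), 136.1 M (KO2), 132.2 M (WT1) and 176.6 M (WT2) mapped reads. Hells was at 0.430 and 0.550 RPKM (reads per kilobase of transcript, scaled to the mapped reads of the library) in KO1 and KO2, against 0.865 and 1.06 RPKM in WT1 and WT2, lower in KO within both numbers but short of the threshold (limma adjusted p 0.200 with a term for the number), so transcript remained in KO libraries. Of 10 fibroblast markers all were detected in every library, with Col1a1, a chain of type I collagen, at 291 and 465 RPKM in KO libraries and 318 and 517 RPKM in WT libraries. Lum, a small matrix proteoglycan of fibroblasts, was at 1.27 and 105 RPKM in KO1 and KO2 and at 0.718 and 108 RPKM in WT1 and WT2, so the replicate numbers stood apart. In limma with terms for genotype and number, 47.7% of the 11149 tested genes differed between the numbers at an adjusted p below 0.05. The deposited tables also list different transcripts by number. KO was therefore set against WT inside each number as well as over all 4 libraries. Tests were run with genotype alone, the planned fit, and with a further term for the number, its alternative, called the number-adjusted fit.

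The levels of the 10 genes, which RPKM allows to be compared because it is per length, were ordered by their means over the 4 libraries, which pool replicate numbers that differ. Ptgs2 averaged 169 ± 180 RPKM (SD, n = 4) and Csf1 117 ± 93.6, followed by Lif at 19.8 ± 16.7, Nfkbia at 12.4 ± 3.24, Il1rn at 5.81 ± 3.03, Il6 at 3.85 ± 5.02 and Il1a at 2.02 ± 3.92. Tnf averaged 0.831 ± 0.673 RPKM, Il1b 0.126 ± 0.156 and Csf2 0.0512 ± 0.0977. Ptgs2 and Csf1 together made up 88.5% (KO1), 66.5% (KO2), 89.8% (WT1) and 64.7% (WT2) of the summed RPKM of the genes. Ptgs2 ranked 39 and 53 among the 16271 genes in KO1 and WT1, above Csf1 at 85 and 108. In KO2 and WT2 Csf1 stood above Ptgs2, with ranks of 840 and 925 against 2248 and 3425. Among the next genes Lif was above Nfkbia, Il1rn and Il6 in KO1 and WT1, whereas in KO2 and WT2 the order was Nfkbia, Il1rn, Lif and Il6. Il1a at 7.91 RPKM stood above Il1rn at 3.02 RPKM in KO1 only, and Tnf at 1.62 RPKM above Il6 at 0.511 RPKM in WT2 only. Csf2 and Il1b stayed below 0.5 RPKM throughout. Neighbours in the order of means had overlapping ranges over the libraries, except Nfkbia, whose lowest value of 9.54 RPKM lay just above the highest of Il1rn, 9.44 RPKM.

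**Figure D1:**
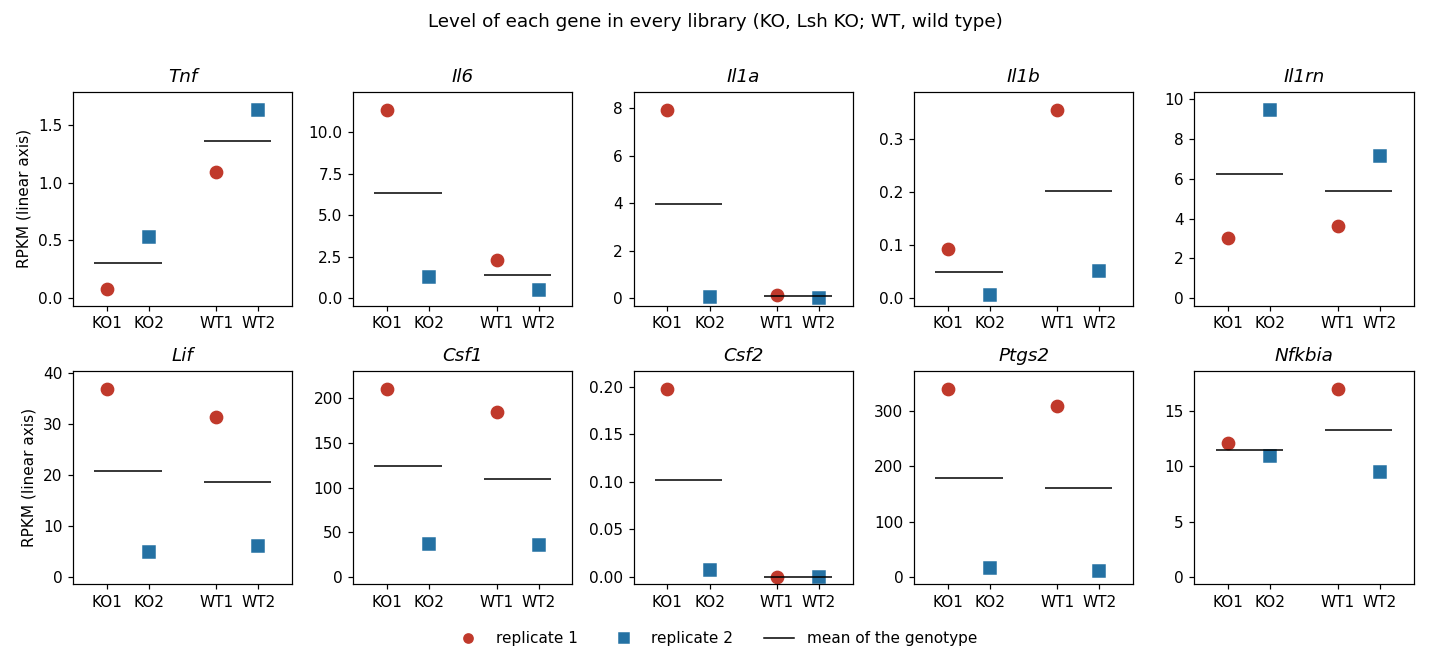
RPKM (linear axis from 0, own scale for each gene) of the 10 genes in KO1, KO2, WT1 and WT2, with circles for replicate 1, squares for replicate 2 and a line at the mean of each genotype. Tnf is lower in both KO libraries (0.0757 and 0.531 RPKM) than in both WT libraries (1.09 and 1.62 RPKM), and Ptgs2, Csf1 and Lif separate by replicate number.

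The comparison of KO with WT asked how the cytokine genes stood without Lsh. Tnf fell in KO in the number-adjusted fit but was not called with genotype alone. Il6 was higher in KO within both replicate numbers without passing the threshold, and Il1a was high in 1 KO library. By sign alone, 5 of the 10 genes (Il6, Il1a, Csf1, Csf2 and Ptgs2) stood higher in KO inside both numbers. Another 2 (Tnf and Il1b) stood lower, and 3 (Il1rn, Lif and Nfkbia) went opposite ways. In replicate 2 the reads of Il1a (8 in KO2, 4 in WT2) and Csf2 (1 in KO2, 0 in WT2) were too few to give a direction. Over the 7 genes that passed the filter of at least 0.5 RPKM in at least 2 libraries, 4 kept 1 sign within both numbers, against 53.8% of all tested genes. KO and WT ranges were apart for 1 of the 7 (Tnf), against 13.4% of all tested genes. Il1a, Il1b and Csf2 did not pass the filter and were not tested.

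With genotype as the only term, limma called 0 of 11149 genes (0%), 41 had an unadjusted p below 0.05, and none of the 7 tested genes passed. In the number-adjusted fit 75 genes passed (0.673%), of which 33 (0.296%) were lower in KO, and Tnf was the only one of the 7 among them. Differences below are KO minus WT on log2(RPKM + 0.5), which understates the change of low genes, and "fell" refers to the number-adjusted fit.

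**Figure D2:**
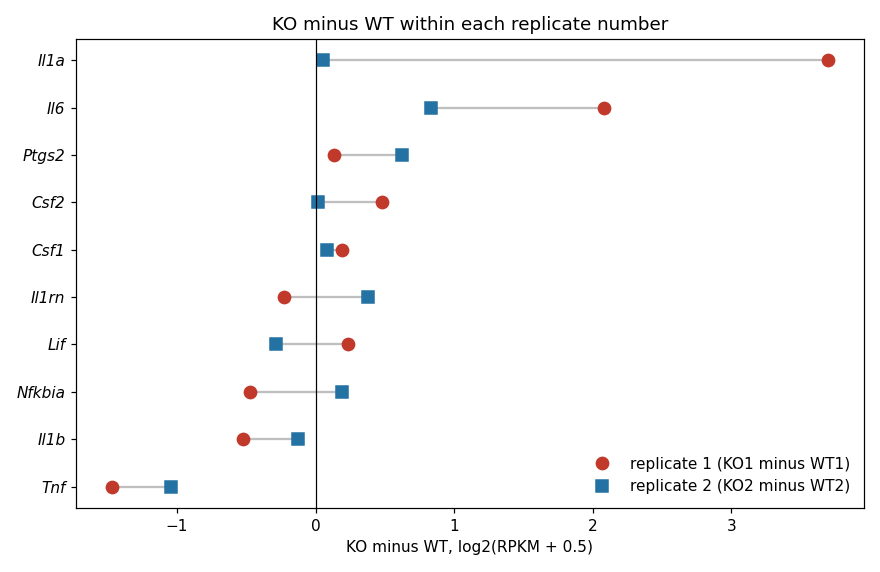
Horizontal axis, KO minus WT on log2(RPKM + 0.5); each row is a gene, with a circle for KO1 minus WT1 and a square for KO2 minus WT2 joined by a grey line. Tnf lies left of 0 in both replicates (-1.47 and -1.04), Il6 right of 0 in both (2.08 and 0.83), and Il1a reaches 3.69 in replicate 1 but 0.051 in replicate 2.

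Sequences before the annotated start are shown for the main inflammatory cytokines, Tnf, Il6, Il1a and Il1b, and for Nfkbia as the feedback gene. Within both numbers Tnf and Il1b were lower in KO and Il6 was higher. Il1a was higher in KO in replicate 1, with too few reads in replicate 2 to give a direction. Of these genes only Tnf passed a test, in the number-adjusted fit. Each is the 250 bases upstream of the start, 5′ to 3′ on the strand of the gene, from RefSeq on build GRCm38.p6. Capitals mark matches, on either strand, to the NF-kB consensus, to the AP-1 motif TGANTCA or to TATAAA.
Tnf: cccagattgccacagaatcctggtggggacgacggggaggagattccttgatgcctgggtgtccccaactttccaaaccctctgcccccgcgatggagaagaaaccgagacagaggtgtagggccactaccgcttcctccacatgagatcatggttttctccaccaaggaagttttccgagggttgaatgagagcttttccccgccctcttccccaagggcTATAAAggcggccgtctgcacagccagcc
Il6: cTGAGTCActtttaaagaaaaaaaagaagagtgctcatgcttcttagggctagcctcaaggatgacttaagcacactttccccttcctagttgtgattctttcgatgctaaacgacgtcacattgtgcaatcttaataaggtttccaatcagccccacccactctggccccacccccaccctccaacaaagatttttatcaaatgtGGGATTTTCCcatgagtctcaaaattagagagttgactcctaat
Il1a: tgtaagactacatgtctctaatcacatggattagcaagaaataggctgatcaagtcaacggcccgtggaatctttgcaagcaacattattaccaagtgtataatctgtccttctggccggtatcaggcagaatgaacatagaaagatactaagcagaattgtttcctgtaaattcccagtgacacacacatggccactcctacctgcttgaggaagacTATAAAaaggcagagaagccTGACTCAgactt
Il1b: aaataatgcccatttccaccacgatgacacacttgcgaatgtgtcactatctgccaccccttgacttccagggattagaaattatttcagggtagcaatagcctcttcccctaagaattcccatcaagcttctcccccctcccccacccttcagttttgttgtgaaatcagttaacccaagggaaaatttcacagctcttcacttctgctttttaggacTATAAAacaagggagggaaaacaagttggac
Nfkbia: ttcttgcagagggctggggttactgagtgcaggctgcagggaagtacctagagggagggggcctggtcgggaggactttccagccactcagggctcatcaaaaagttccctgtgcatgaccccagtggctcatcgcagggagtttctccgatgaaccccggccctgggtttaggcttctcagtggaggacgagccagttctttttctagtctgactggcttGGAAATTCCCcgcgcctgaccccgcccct

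These windows are chr17:35202008-35202257 (minus strand) for Tnf, chr5:30012864-30013113 (plus strand) for Il6, chr2:129309973-129310222 (minus strand) for Il1a, chr2:129371140-129371389 (minus strand) for Il1b and chr12:55492648-55492897 (minus strand) for Nfkbia. The NF-kB consensus was found at -44 to -35 for Il6 and, on the opposite strand, at -29 to -20 for Nfkbia, counted back from the base before the start. Lif and Csf1 also held it, so 4 of the 10 genes did, against 7.25% of 32841 windows of this length. TGANTCA was found for Il6, Il1a, Il1rn and Lif (6.75% of all windows) and TATAAA for Tnf, Il1a and Il1b (12.4% of all windows). No 2 matches overlapped in the printed windows. Since Lsh is known for its part in DNA methylation, CpG dinucleotides were counted as well. Tnf had 10, Il6 and Il1a had 3 each, Il1b had 2 and Nfkbia had 8, against a median of 6 over all windows, and the most were the 13 of Ptgs2. A match or its lack in a window of letters does not tell whether a factor binds.

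Tnf (chromosome 17, 35336336 to 35338942 on build mm9, minus strand) was at 0.0757 RPKM in KO1 and 0.531 RPKM in KO2, against 1.09 RPKM in WT1 and 1.62 RPKM in WT2. The KO libraries were both below the WT libraries, and the groups did not overlap. These levels correspond to 15 and 117 reads in KO1 and KO2 and to 234 and 464 reads in WT1 and WT2. KO over WT was 0.0692 in replicate 1 (95% exact interval 0.0381 to 0.117) and 0.327 in replicate 2 (0.265 to 0.401), where the intervals cover counting error only. Tnf fell by 1.26 on the log2 scale (SE 0.17, adjusted p 0.00789 in number-adjusted limma). With genotype alone the SE was 0.46 and limma's adjusted p was 1. The call ended with a pseudocount of 0.1, where the log2 difference was -2.11 (adjusted p 0.0661), and, at an unchanged -1.26, with the highest transcript in place of the sum (0.0944) and without the filter on low values (0.434). The call held, at a difference of -0.87, when the pseudocount was 1 (0.0190). Over 8 number-adjusted fits it ranged from 0.000381 to 0.434, below the threshold in 5.

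Markers of macrophages and blood moved with Tnf. Of the listed markers 18 were present and 15 tested, with a median log2 difference of -1.34. Inside both numbers 14 were lower in KO, where 53.8% of all tested genes keep 1 sign, in either direction. Of the markers 7 fell (Cd14, C1qc, Fcer1g, Laptm5, Sfpi1, Lcp1 and Cd52), against 0.296% of all tested genes. The summed level of the 18 was 9.01 and 97.2 RPKM in KO1 and KO2, against 67.4 and 197 RPKM in WT1 and WT2. The defining markers Ptprc (the leukocyte antigen CD45) and Emr1 (F4/80) were at 0.0249 and 0.0277 RPKM in KO1, 0.289 and 0.516 in KO2, 0.144 and 0.508 in WT1 and 0.423 and 0.812 in WT2. Aif1, listed at 0 in KO1, reached at most 0.0324 RPKM in any library. The part of such cells in the Tnf difference was not tested, and in these bulk samples fewer cells of a type and less RNA per cell cannot be told apart.

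Il6 (chromosome 5, 30339701 to 30346509, plus strand), a cytokine that signals through the gp130 receptor chain, was at 11.3 RPKM in KO1 and 1.30 RPKM in KO2, against 2.29 RPKM in WT1 and 0.511 RPKM in WT2. KO was above WT within each number, while KO2 lay below WT1, so the groups overlapped. The ratio of KO to WT was 4.93 in replicate 1 (95% exact interval 4.38 to 5.58, from 1504 and 329 reads) and 2.54 in replicate 2 (1.98 to 3.28, from 192 and 98 reads). The log2 difference was 1.46 (SE 0.30), and the adjusted p of 0.149 in number-adjusted limma missed the threshold. It passed in 2 of the 8 number-adjusted fits, with quantile normalization (0.0289) and without trend and robust variance (0.0444), and ranged up to 0.509.

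The level of Il6 over that of Tnf was 149 in KO1 and 2.44 in KO2, against 2.09 in WT1 and 0.314 in WT2. The KO1 value rests on 15 reads of Tnf, and KO2 and WT1 lay close together.

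Lif, the leukaemia inhibitory factor, uses the same receptor chain as Il6. It was at 36.9 RPKM in KO1 and 4.87 RPKM in KO2, against 31.4 RPKM in WT1 and 6.04 RPKM in WT2. The KO library was the higher in replicate 1 and the lower in replicate 2, and the log2 difference of -0.027 (SE 0.18 when number-adjusted) was within the spread. Its transcript row that starts at 4167098 on chromosome 11 held between 94.1% and 94.2% of the gene's level in every library, and the 2 rows had nearly the same KO over WT ratios, so they do not give separate measurements.

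The interleukin-1 genes behaved differently from each other although Il1a and Il1b are neighbours on chromosome 2 (129125346 to 129135709 and 129190316 to 129196857, both on the minus strand). Il1a, the form that is active without cleavage and is also known from stressed or senescent stromal cells, was at 7.91 RPKM in KO1 and 0.0298 RPKM in KO2, against 0.149 RPKM in WT1 and 0.0115 RPKM in WT2. This is 1911 and 8 reads in KO1 and KO2, against 39 and 4 reads in WT1 and WT2. These are the smallest counts, from the shortest of 15 transcript lengths that gave whole reads. KO1 alone was high, and without it the remaining KO library lay between the WT libraries. The ratio of KO to WT was 52.9 in replicate 1 (95% exact interval 38.5 to 74.6) and 2.59 in replicate 2 (0.695 to 11.8). With so few reads in replicate 2, no difference was detectable there. Without the filter, limma's adjusted p for Il1a was 1 with genotype alone and 0.693 when number-adjusted.

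Il1b, which needs cleavage by caspase-1, was at 0.0923 RPKM in KO1 and 0.00554 RPKM in KO2, against 0.354 RPKM in WT1 and 0.0512 RPKM in WT2. It was lower in KO within each number, but KO1 lay above WT2. The counts were 15 reads in KO1 and 1 in KO2, against 62 in WT1 and 12 in WT2. The ratio of KO to WT was 0.261 in replicate 1 (95% exact interval 0.138 to 0.464) and 0.108 in replicate 2 (0.00253 to 0.731). Without the filter, limma's adjusted p was 1 with genotype alone and 0.605 when number-adjusted. The summed macrophage and blood markers, given above with Tnf, were also lower in KO within each number, and were 67.4 RPKM in WT1 and 197 RPKM in WT2. Their part in the Il1b values was not tested.

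Il1rn, the receptor antagonist, was the more abundant member of the family in all libraries but KO1. It was at 3.02 RPKM in KO1 and 9.44 RPKM in KO2, against 3.61 RPKM in WT1 and 7.16 RPKM in WT2. The KO library was the lower in replicate 1 and the higher in replicate 2, and the log2 difference was 0.075 (SE 0.19 when number-adjusted). The level of Il1rn over the summed Il1a and Il1b was 0.377 in KO1 and 267 in KO2, against 7.18 in WT1 and 114 in WT2. Only KO1 held less antagonist than ligand transcript. Of the 3 transcript rows of Il1rn, the 2 that start at 24200811 and 24200891 had the same KO over WT ratio in each number, 0.687 in replicate 1 and 1.69 in replicate 2. The row that starts upstream, at 24192380, had ratios of 0.944 and 1.04. Such shared ratios mean that the pair of rows does not give separate measurements.

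Epithelia also make Il1a and Il1rn. Epithelial markers summed to 5.82 and 4.71 RPKM in KO1 and KO2, against 15.5 and 15.6 RPKM in WT1 and WT2. Of the 7 markers 2 were tested, and Krt19, a keratin of simple epithelia, fell. Krt19 carried most of the sum, with 3.56 and 2.70 RPKM in KO1 and KO2, against 13.4 and 9.78 RPKM in WT1 and WT2. Epcam lay the other way in both numbers, at 0.151 and 0.0463 RPKM in KO1 and KO2, against 0.0551 and 0.0137 RPKM in WT1 and WT2. Krt18 did so in replicate 1 only, at 1.97 and 0.939 RPKM in KO1 and KO2, against 1.81 and 2.58 RPKM in WT1 and WT2. Krt8 was lower in KO within both numbers, at 0.0679 and 0.480 RPKM in KO1 and KO2, against 0.176 and 2.45 RPKM in WT1 and WT2. Krt14 and Cdh1 were higher in KO in replicate 1 and lower in replicate 2. Krt5, Cdh1 and Epcam stayed at or below 0.151 RPKM in all libraries, and Krt5 was listed at 0 in KO1. T, B and mast cell markers summed to at most 0.170 RPKM in any library. Endothelial markers summed to 0.611 and 2.34 RPKM in KO1 and KO2, against 1.63 and 1.89 RPKM in WT1 and WT2, with 0 calls among 2 tested. The part of epithelial cells in the interleukin-1 values was not tested.

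The colony-stimulating factors stood at opposite ends of the range of levels. Csf1, the growth factor of macrophages made by many stromal cells, was at 210 RPKM in KO1 and 37.3 RPKM in KO2, against 184 RPKM in WT1 and 35.2 RPKM in WT2. KO was slightly above WT in each number, with ratios of 1.14 and 1.06, and the log2 difference of 0.14 (SE 0.16 when number-adjusted) was within the spread. Of the 3 transcript rows of Csf1 on chromosome 3, the main one held 96.9% (KO1), 95.7% (KO2), 95.7% (WT1) and 90.5% (WT2) of the level. The second row, which has the same start and end, was at 5.52 and 1.47 RPKM in KO1 and KO2, against 7.06 and 3.22 RPKM in WT1 and WT2, so its KO over WT ratios of 0.783 and 0.457 ran opposite to the main row's 1.16 and 1.12. Row levels rest on how the authors assigned shared reads, and this difference was not tested.

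Csf2, the granulocyte-macrophage factor, was at 0.198 RPKM in KO1 and 0.00711 RPKM in KO2 and was listed at 0 in both WT libraries. These are 25 reads in KO1 and 1 read in KO2. Taking 3 reads per library as the limit that a count of 0 allows, or 0.0220 RPKM in WT1 and 0.0165 RPKM in WT2, Csf2 was at least 8.995-fold higher in KO1 than in WT1 at its measured KO1 level. For replicate 2 both libraries were under this limit and no fold is given. The signal of Csf2 thus rests on KO1, the library in which Il1a, Il6, Lif, Csf1 and Ptgs2 were also highest.

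Ptgs2 (chromosome 1, 151947254 to 151955143, plus strand), also called COX-2, was at 339 RPKM in KO1 and 16.5 RPKM in KO2, against 309 RPKM in WT1 and 10.6 RPKM in WT2. KO was above WT in each number, by log2 differences of 0.13 and 0.62. Over both the difference was 0.38 (SE 0.18), and the adjusted p of 0.579 in number-adjusted limma missed the threshold.

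Nfkbia (chromosome 12, 56590396 to 56593635, minus strand) had the smallest SD relative to its mean of the 10 genes. It was at 12.1 RPKM in KO1 and 10.9 RPKM in KO2, against 17.0 RPKM in WT1 and 9.54 RPKM in WT2. KO was below WT in replicate 1, with a ratio of 0.712, and above it in replicate 2, with a ratio of 1.15. The log2 difference was -0.14 (SE 0.19, adjusted p 0.924 in number-adjusted limma), within the spread.

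Most of the genes differed more between the replicate numbers than between the genotypes. Of the 7 tested, 6 differed between the numbers in limma with genotype as a term (against 47.7% of all genes), 4 of them lower in replicate 2 (against 11.9% of all genes), and the ranges of the numbers were apart for 6 (against 74.5%). Ptgs2 was at 16.5 and 10.6 RPKM in KO2 and WT2, against 339 and 309 RPKM in KO1 and WT1, a log2 difference of -4.56 (SE 0.18, limma adjusted p 5.86e-08). For Lif it was -2.54 (limma adjusted p 2.44e-06), for Csf1 -2.43 (1.52e-06) and for Il6 -2.09 (0.00203). Il1rn went the other way, by 1.20 (limma adjusted p 0.000563), as did Tnf, by 0.63 (0.0127). The median of all tested genes was 0.25, and median-ratio scaling moved it to 0.0042 and the share of all genes lower in replicate 2 to 21.3%. Under that scaling Nfkbia, at -0.47 and an adjusted p of 0.0667 in limma, passed as well (-0.74 and 0.00541). What the numbers stand for is not given in the labels, so culture, litter, library and processing cannot be told apart.

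**Figure D3:**
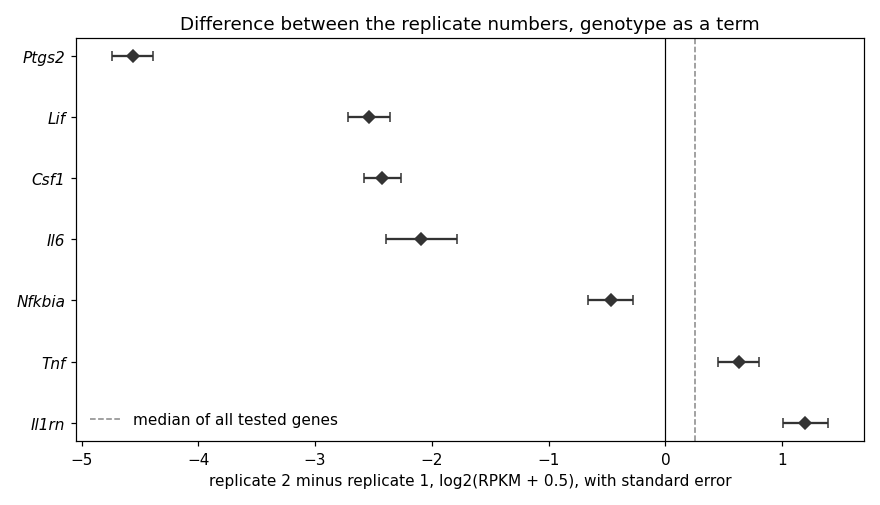
Horizontal axis, replicate 2 minus replicate 1 on log2(RPKM + 0.5), with genotype as a term; diamonds are estimates, bars standard errors, and the dashed line the median of all tested genes (0.25). Ptgs2 lies farthest left at -4.56, and Tnf (0.63) and Il1rn (1.20) lie to the right.

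The pathways around these genes were called at about the rate of all genes. Over 9 lists with 100 distinct tested genes, 1 gene fell and 0 rose in number-adjusted limma (against 0.673% of all tested genes in either direction), and 0 passed with genotype alone. Inside both numbers 27 stood higher in KO and 32 lower, where 53.8% of all tested genes keep 1 sign. The called gene was Cxcl2, a neutrophil chemokine induced by NF-kB, at 0.445 and 1.93 RPKM in KO1 and KO2, against 2.19 and 3.93 RPKM in WT1 and WT2 (limma adjusted p 0.0288). Its direction was that of Tnf. Between the numbers 63 of the 100 differed (47.7% of all genes), 26 lower (11.9% of all genes) and 37 higher in replicate 2 (3992 of all 11149 genes). With median-ratio scaling 21.3% of all genes were lower and 23% higher in replicate 2, and no list counts are given under that scaling.

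Of the NF-kB subunits and kinases, 10 were tested, 0 passed in either direction, and the median log2 difference was -0.039 against -0.021 over all tested genes. Rela, the main activating subunit, was at 21.0 and 18.2 RPKM in KO1 and KO2, against 22.9 and 22.3 RPKM in WT1 and WT2. Map3k14, the kinase of the non-canonical branch, was at 0.581 and 1.36 RPKM in KO libraries, against 0.928 and 1.92 RPKM in WT libraries. Both were lower in KO within each number by amounts that missed the threshold.

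The other feedback inhibitors numbered 16 tested genes with 0 calls and a median of -0.046. Nfkbiz, an atypical IkB protein needed for the induction of Il6 in mouse cells, was at 22.8 and 11.8 RPKM in KO1 and KO2, against 12.3 and 9.49 RPKM in WT1 and WT2. Zc3h12a, a ribonuclease known to degrade Il6 mRNA, was at 8.95 and 2.03 RPKM in KO libraries, against 5.00 and 1.93 RPKM in WT libraries. Each was higher in KO within both numbers, and neither passed. AU-rich RNA binding proteins, several of which destabilise cytokine mRNAs, had 0 calls among 9 tested and a median of -0.25. Zfp36, whose product tristetraprolin destabilises Tnf mRNA, was at 27.1 and 58.3 RPKM in KO1 and KO2, against 33.3 and 80.0 RPKM in WT1 and WT2. Mapkapk2, the kinase that restrains it, was at 36.8 and 36.1 RPKM against 48.9 and 45.8 RPKM in the same order.

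Among receptors of the 10 gene products, 11 of 16 were tested, 0 passed and the median was 0.023. Il1rap, the accessory chain of the interleukin-1 receptor, was at 9.68 and 3.83 RPKM in KO1 and KO2, against 5.06 and 2.06 RPKM in WT1 and WT2, and its adjusted p of 0.0663 in number-adjusted limma missed the threshold. Csf1r, the receptor of Csf1 and itself a macrophage marker, was at 0.373 and 0.980 RPKM in KO libraries, against 0.803 and 2.35 RPKM in WT libraries (adjusted p 0.102 in that limma fit). Il1r1, the signalling receptor, was above WT like Il1rap, at 7.02 and 9.35 RPKM in KO1 and KO2 and 5.14 and 8.28 RPKM in WT1 and WT2, a gene named after its values were seen.

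The adaptors had 0 calls among 14 tested and a median of -0.030, with Traf5 at 2.96 and 2.11 RPKM in KO libraries, against 4.35 and 2.27 RPKM in WT libraries, and Tirap at 5.01 and 2.82 against 4.31 and 2.43 RPKM. Of 8 present genes of the interleukin-1 family and inflammasome 2 were tested and 0 passed, with a median of 0.53. Both of these, Il33 and Il1rl1, went opposite ways within the numbers, so their median is no shared shift. Casp1, which cleaves Il1b, reached at most 0.0728 RPKM. Among the ligands of the Il6 and Lif family and their STAT3 feedback, 12 were tested and 0 passed, with a median of 0.019. Osmr, the oncostatin M receptor, was at 14.5 and 27.6 RPKM in KO1 and KO2, against 8.08 and 21.0 RPKM in WT1 and WT2. Ctf1, the ligand cardiotrophin-1, was at 0.971 and 3.91 RPKM against 1.57 and 6.16 RPKM in the same order. Socs3, the feedback inhibitor of gp130 signalling, was at 5.21 and 24.1 RPKM in KO1 and KO2, against 3.45 and 28.0 RPKM in WT1 and WT2, and is named after its values were seen.

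In prostaglandin synthesis 10 genes were tested, 0 passed and the median was 0.12. Ptgs1, the constitutive relative of Ptgs2, was at 15.3 and 4.88 RPKM in KO1 and KO2, against 6.09 and 3.39 RPKM in WT1 and WT2. Pla2g4a, the phospholipase that releases arachidonic acid, was at 19.0 and 13.5 RPKM in KO libraries, against 16.6 and 8.46 RPKM in WT libraries. Like Ptgs2, both lay above WT within each number without passing. Of the other NF-kB target genes 17 were tested, with a median of 0.16. Mmp13, a collagenase, was at 7.11 and 17.4 RPKM in KO1 and KO2, against 1.91 and 12.5 RPKM in WT1 and WT2, and missed the threshold.

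**Figure D4:**
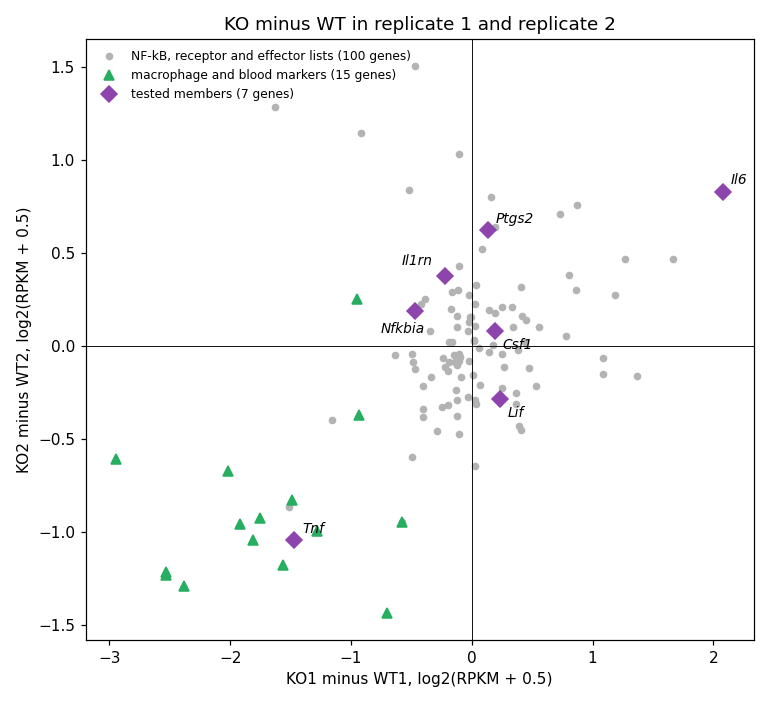
Horizontal axis, KO1 minus WT1, and vertical axis, KO2 minus WT2, both on log2(RPKM + 0.5); grey points are the 100 tested genes of the 9 pathway lists, triangles the 15 tested macrophage and blood markers (Csf1r is in both) and diamonds the 7 tested genes described here. Tnf, at -1.47 and -1.04, lies among the markers, and Il6, at 2.08 and 0.83, lies farthest to the right.

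The tested genes whose pattern over the 4 libraries was nearest to that of Tnf, by Euclidean distance of log2(RPKM + 0.5) after subtracting each gene's mean, were Eps8l2 (distance 0.263), Acp5 (0.276) and Gdf15 (0.332). Eps8l2, the nearest, was at 0.165 and 0.479 RPKM in KO1 and KO2, against 0.997 and 1.46 RPKM in WT1 and WT2. Acp5, the tartrate-resistant acid phosphatase known from osteoclasts and macrophages, was at 0.269 and 0.828 RPKM in KO1 and KO2, against 1.28 and 1.76 RPKM in WT1 and WT2. Gdf15, a stress-induced cytokine, was at 1.16 and 2.31 RPKM in KO libraries, against 4.12 and 4.14 RPKM in WT libraries. With 4 libraries such likeness is a description only.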

How the data were processed

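Gene expression was measured by RNA sequencing of poly-A RNA in 4 libraries, 2 per genotype. Ribosomal RNA was removed with RiboMinus before poly-A selection, per the labels' protocols. The authors deposited RPKM per RefSeq transcript. Build mm9 and Partek are named in the submitters' processing notes, Cufflinks in a deposited readme. The aligner is not given in the sources used here.

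Rows were summed per symbol and chromosome over the 21136 rows in all libraries. A gene was tested if 2 or more libraries reached 0.5 RPKM, on the scale log2(RPKM + 0.5), with limma 3.58.1 in R 4.3.3 (trend and robust variance), two-sided, with Benjamini-Hochberg adjustment over all tested genes and a threshold of 0.05. The libraries were fitted with genotype alone and number-adjusted, with a further term for the replicate number, which leaves 1 residual degree of freedom per gene. The labels do not say that numbers pair the samples. Both fits were tested on simulated data in which the numbers differed by the same amount in both genotypes. There the number-adjusted fit recovered most of the changed genes and the genotype-only fit called none of them. That setting favours the number-adjusted fit by construction, so it cannot tell which fit suits these libraries.

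Mapped reads were estimated from olfactory receptor rows of a single exon, where RPKM times length comes in steps of 1 read (tolerance 0.02). The reads of a member with 1 row are the smallest numbers that are whole in every library, given where at most 20 lengths fitted. The lengths that fitted numbered 1 for Tnf, 2 for Csf2, 4 for Il1b and Nfkbia, 6 for Il6 and 15 for Il1a. A longer length would give more reads. Intervals are 95% exact ones at the reads given and cover counting error only. Promoters came from RefSeq (10 of 10 symbols matched, 12 windows). All 10 members were named. Of each list, genes past the threshold were named, filled to 2 with the largest differences of 1 sign within both numbers. The members and lists were chosen with earlier results of these data known. Alternatives were other pseudocounts, scalings, filters, variance models and transcript choices, and leaving out each library.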

Additional observations from a re-analysis of the deposited data

How the results depend on the processing

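The replicate block raised the count of called genes from 0 with genotype alone to 75. With the block and 1 other change it was 37 (pseudocount 0.1), 59 (pseudocount 1), 105 (median-ratio scaling), 187 (quantile normalization), 3 (highest transcript), 77 (no trend and robust variance) and 0 (no filter). Without the block it was 0 under every alternative run, each left-out library included (0 to 0). The check for pairing gave a correlation of 0.875 between the deviations of same-numbered libraries, and the labels state no pairing. Of the 7 tested members, Tnf kept its direction in all fits, with -1.68 to -0.84 when a library was left out, as did Il6, with 0.098 to 2.81. In such fits the difference between the numbers enters, and the others ran from -0.67 to 0.82 (Il1rn), -1.43 to 1.37 (Lif), -1.10 to 1.38 (Csf1), -2.03 to 2.78 (Ptgs2) and -0.54 to 0.26 (Nfkbia). Il1rn also turned to -0.0089 with the highest transcript and the block, and Lif to 0.0080 with median-ratio scaling, with and without the block; the cause was not tested. Leaving out a library with the block leaves no residual degrees of freedom and was not run. The count of genes differing between the numbers, 5323, stayed between 4804 and 5151 under 4 alternatives. Under them Tnf lost its call between the numbers without the filter (adjusted p 0.0541 in limma), and Nfkbia gained one with median-ratio scaling. Low read counts limit Il1a, Il1b and Csf2 in replicate 2, at 12 reads or fewer, although its libraries were the deeper ones within each genotype.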

Other observations

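Of the ligands in the lists of the Il6 and interleukin-1 families, 5 were tested, and all 5 differed between the replicate numbers in limma with genotype as a term, 3 lower and 2 higher in replicate 2. This grouping was made after their values were seen. Of all 11149 tested genes 47.7% differed between the numbers, 1331 of them lower and 3992 higher in replicate 2. Il11, a ligand that signals through the gp130 chain, was at 0.775 and 0.685 RPKM in KO2 and WT2, against 31.5 and 21.2 RPKM in KO1 and WT1 (log2 difference -4.42, limma adjusted p 8.38e-08). Clcf1, another gp130 ligand, was at 2.26 and 2.35 RPKM in KO2 and WT2, against 11.3 and 9.43 RPKM in KO1 and WT1, and Cntf was also lower in replicate 2 (log2 difference -0.85). Ctf1 went the other way (log2 difference 1.64, limma adjusted p 4.67e-05), as did Il33, an interleukin-1 family member, at 4.68 and 5.29 RPKM in KO2 and WT2, against 0.896 and 0.0417 RPKM in KO1 and WT1 (limma adjusted p 0.00761). For Il33 KO was above WT in replicate 1 and below it in replicate 2.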
